A study of Mus musculus with 11 samples.

Results

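Mesenchymal cells of the mouse lung at day 14 after pneumonectomy (PNX), an operation that takes out lung tissue, were compared with the same kind of cells at day 7 after PNX. All 6 libraries of these groups were used, 3 for each day, of 11 in the series. The other 5 came from sham-operated mice, 3 at day 7 and 2 at day 14, and served for the spread between libraries and for the difference between PNX and sham in the change between days. All mice were C57BL6, and the labels give neither age nor sex, name no allele and no drug, and do not say whether a library came from 1 animal or a pool. Cells were sorted from lung for the absence of EpCAM, CD45 and CD31, surface proteins of epithelial, haematopoietic and endothelial cells. This gate keeps whatever lacks the 3 proteins, so it holds fibroblasts, smooth muscle, pericytes and mesothelium together.

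After lung tissue is removed, the remaining lung grows and forms alveoli, and mesenchymal cells are known to divide, to lay down matrix and to send growth signals to the epithelium in that time. Alveolar fibroblasts support type II alveolar cells, the surfactant-making cells that also renew the epithelium. A cell that divides first copies its DNA with the replication genes and then builds a spindle with the mitosis genes. Most genes of the second kind are known to be held silent between divisions by a protein complex that recognises short promoter elements.

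The 6 libraries held from 2963341 to 7895688 counts. CPM, the share of a library's counts that falls on a gene, is adjusted by TMM factors and is not divided by gene length, so levels are compared between libraries and not between genes. Col1a2, a collagen gene of fibroblasts, stood at 2205 to 3783 CPM and Pdgfra, a growth factor receptor of fibroblasts, at 268 to 701 CPM. Epcam and Ptprc, which encode gate proteins, stood at 1.80 to 6.52 and at 5.26 to 16.4 CPM, but Pecam1, which encodes CD31, reached 247 CPM in replicate 1 of day 7. Some features moved with the day. Surfactant transcript Sftpc took 0.0351 to 0.166% of counts at day 7 and 0.641 to 1.34% at day 14. Y-linked counts numbered 1026 to 2452 in the 3 libraries of day 7 and 2343 in replicate 1 of day 14, and were 0 in replicates 2 and 3 of day 14, which held 742 and 698 Xist counts. Olfactory and vomeronasal receptor genes, which serve as a measure of background, took 297 to 1195 CPM of total counts at day 7 and 124 to 442 at day 14. Haemoglobin took 0.0344 to 9.06% of counts and was highest in replicate 2 of day 14. Across 15865 genes with a GC content, the rank correlation of log2 fold change with GC content was -0.29, a description in which genes share libraries. No label says that replicates were separate animals, so a p-value here reflects how far these libraries spread, in part perhaps for technical reasons. In bulk RNA, fewer cells of a type and less RNA per cell cannot be told apart.

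No gene passed the threshold of an adjusted p of 0.05 in either direction between the days (edgeR's quasi-likelihood test on 16011 genes, Benjamini-Hochberg adjustment, 0.0% called). At an unadjusted p under 0.05, 595 genes (3.72%) were higher and 501 (3.13%) lower at day 14. The 3 values of one day lay wholly above those of the other for 1444 genes (9.02%) that were higher and 1454 (9.08%) that were lower. By other tools the counts were 28 higher and 31 lower (DESeq2) and 82 higher and 29 lower (limma voom, sample weights). Fitted on the 6 PNX libraries alone, edgeR called 50 of 13526 genes higher (0.37%) and 33 lower (0.244%). The square root of the common dispersion, a measure of the spread between replicates, was 0.335 in that fit and 0.442 in the fit on all 11 libraries. Below, the adjusted p from the 6 libraries alone is printed beside the main one only for some genes, all under 0.05. Some other named genes also passed in that edgeR fit, among them Prc1 (adjusted p = 0.00622), Ckap2l (0.0163) and Aurka (0.0218). Further named genes did not pass there, among them Cenpf (adjusted p = 0.0515), Timp1 (0.0628), Wt1 (0.0745) and Saa3 (0.189). Over all genes the median log2 fold change was -0.061. With total counts in place of TMM factors it was -0.349, and values below are relative to the TMM scale.

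**Figure D1:**
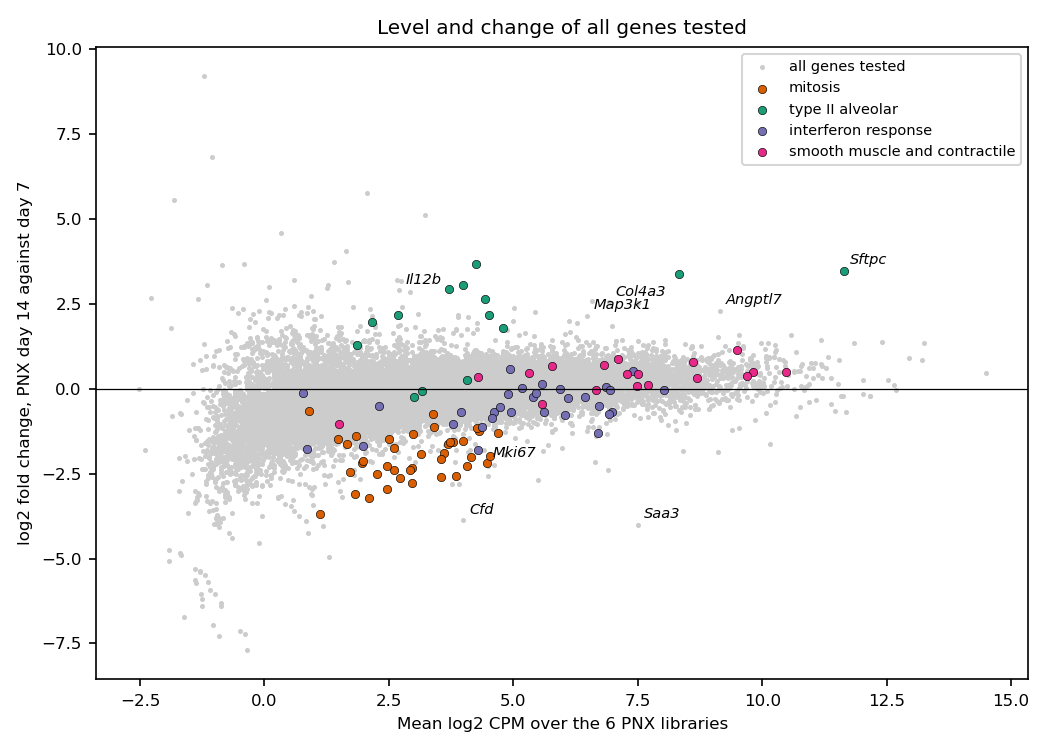
Each point is 1 of the 16011 genes tested, with its mean log2 CPM over the 6 PNX libraries on the x axis and the log2 fold change of day 14 against day 7 on the y axis. Coloured points mark 4 gene lists. All mitosis genes tested lie below 0, most type II alveolar genes lie above it, and Angptl7 stands apart at a high level with a log2 fold change of 2.30.

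Genes of cell division stood lower at day 14 than at day 7 as a group. All 39 mitosis genes tested were lower, with a median log2 fold change of -2.00 against -0.061 over all genes. Of the 39, 32 had an unadjusted p under 0.05 as lower (3.13% of all genes did) and 33 had days that did not overlap (9.08%). None passed the adjusted threshold in the main test, and 14 did in the fit on the 6 PNX libraries alone (0.244% of all genes were called lower there).

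The letters upstream of these genes show what many of them share. TTTGAA, known as the cell cycle homology region of genes that peak in mitosis, and CCAAT, the element bound by the factor NF-Y, were searched on both strands in RefSeq promoters of build GRCm38.p6 that run from 250 bases before to 50 bases after each start. Stretches of 150 bases that end at the base before the start are shown 5′ to 3′ for 3 mitosis genes among those of smallest p, with both motifs in capitals on either strand.
Mki67, chr7:135716380-135716529, minus strand: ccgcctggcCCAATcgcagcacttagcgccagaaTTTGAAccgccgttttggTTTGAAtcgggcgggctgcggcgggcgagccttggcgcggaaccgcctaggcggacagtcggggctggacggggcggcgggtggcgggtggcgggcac
Aurka, chr2:172370571-172370720, minus strand: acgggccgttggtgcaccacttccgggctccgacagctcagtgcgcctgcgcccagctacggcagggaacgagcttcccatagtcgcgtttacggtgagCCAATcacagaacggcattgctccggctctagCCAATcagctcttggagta
Ckap2l, chr2:129297213-129297362, minus strand: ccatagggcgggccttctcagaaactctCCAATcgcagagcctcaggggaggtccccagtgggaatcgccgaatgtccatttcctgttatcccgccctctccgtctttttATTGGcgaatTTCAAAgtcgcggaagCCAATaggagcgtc
Mki67 holds TTTGAA at positions -116 and -98, counted from the start, with CCAAT at -141. Ckap2l holds TTTGAA on the other strand at -30, between CCAAT matches at -40 and -14. Aurka holds CCAAT at -51 and -19, and its TTTGAA lies at 33, after the start and outside the stretch shown. A match is a description of the letters and does not show that a factor binds there.

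At least 1 promoter window was listed for 34 of the 39 mitosis genes. TTTGAA was present for 27 of them (79.4%), against 1788 of 12006 tested genes with a window (14.9%) and 4 of 31 DNA replication genes (12.9%). CCAAT was present for 79.4% of mitosis genes, 42.3% of all tested genes and 61.3% of replication genes. Both lay in 1 window for 70.6% of mitosis genes, against 6.06% of all tested genes and 9.68% of replication genes. Neither motif contains the other, but they can share an end letter, and matches that do so were not left out.

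Tpx2, which encodes a spindle assembly factor that activates Aurora kinase A, had the smallest p of all genes that were lower. It stood at 32.1, 37.7 and 34.8 CPM in replicates 1 to 3 of day 7 and at 7.46, 5.18 and 4.94 CPM in those of day 14. The days lay far apart and each varied little. The log2 fold change was -2.57 ± 0.45 (SE; adjusted p = 0.186, and 0.00134 on the 6 PNX libraries alone). Tpx2 lies on chromosome 2 (152847964 to 152895321, mm10, plus strand).

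Mki67, which encodes the Ki-67 protein of cycling cells, stood at 63.4, 49.3 and 32.9 CPM at day 7 and at 6.53, 13.3 and 11.9 CPM at day 14. The lowest library of day 7 was above the highest of day 14. Its log2 fold change was -2.19 ± 0.43 (adjusted p = 0.186, and 0.00715 on the PNX libraries alone), and it lies on chromosome 7 (135689784 to 135716361, minus strand). Aurka, the gene of Aurora kinase A, stood at 11.6, 13.3 and 6.55 CPM and then at 1.49, 1.57 and 0.45 CPM, a log2 fold change of -3.10 ± 0.63 (adjusted p = 0.186).

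Other spindle and kinetochore genes showed the same separation. Ckap2l, a spindle protein gene, went from 21.1, 17.4 and 13.9 CPM to 3.55, 2.35 and 4.495 CPM (-2.34 ± 0.48). Cenpe, a kinetochore motor, stood at 16.7, 21.0 and 13.5 CPM at day 7 and at 2.80, 1.10 and 4.495 CPM at day 14 (-2.62 ± 0.54). Prc1, which bundles microtubules in the dividing cell's midzone, stood at 49.1, 34.9 and 27.4 CPM and then at 5.78, 8.003 and 9.44 CPM (-2.26 ± 0.49). In each of the 3 the days did not overlap, and the adjusted p was 0.186, 0.186 and 0.216. Cenpf, another kinetochore gene, was lowest in replicate 2 of day 14 at 0.63 CPM, with 4.29 and 5.39 CPM in the other 2 libraries of that day and 15.3 to 30.2 CPM at day 7 (-2.78 ± 0.59).

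Tacc3, a spindle gene, stood at 30.7 to 36.3 CPM at day 7 and at 5.41 to 10.8 CPM at day 14 (-1.87 ± 0.44), and Prr11, a cell cycle gene, at 5.53 to 9.14 and 0.67 to 1.12 CPM (-3.02 ± 0.63). The mitosis genes ranged from -3.70 ± 0.94 for Bub1, a kinase of the spindle checkpoint, to -0.65 on the log2 scale. Bub1 had no count in replicate 2 of day 14. Ccnb2, a B-type cyclin that drives entry into mitosis, stood at 42.1 to 50.2 CPM at day 7 and at 6.16, 11.5 and 18.4 CPM at day 14 (-1.99 ± 0.49). Cdc20 and Ube2c, which act in the ubiquitin pathway that ends mitosis, had log2 fold changes of -1.90 ± 0.46 and -2.96 ± 0.69. Foxm1, a transcription factor of mitosis genes, stood at 7.65, 6.92 and 3.47 CPM and then at 0.75, 0.63 and 0.22 CPM (-3.41 ± 0.85, adjusted p = 0.336).

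DNA replication genes were lower less uniformly. Of 37 tested, 32 were lower and 5 higher, with a median log2 fold change of -0.81. At an unadjusted p under 0.05, 10 were lower (3.13% of all genes were) and 0 higher in edgeR, and 1 was called lower on the PNX libraries alone (0.244% of all genes were). Mcm5, a subunit of the replicative helicase, stood at 16.5, 16.3 and 11.95 CPM at day 7 and at 2.99, 4.24 and 3.60 CPM at day 14 (-2.04 ± 0.53, adjusted p = 0.394). Mcm7, of the same helicase, stood at 19.9 to 23.6 CPM and then at 7.84 to 11.8 CPM (-1.19 ± 0.36). Hells, a chromatin remodeller of replicating cells, was at 11.6 to 13.6 and then at 1.26 to 5.39 CPM (-2.02 ± 0.61). Dtl, which helps degrade replication licensing factors, had the lowest log2 fold change of the list (-2.81 ± 0.94) and no count in replicate 3 of day 14. Whether mitosis genes differed more than replication genes was not tested.

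**Figure D2:**
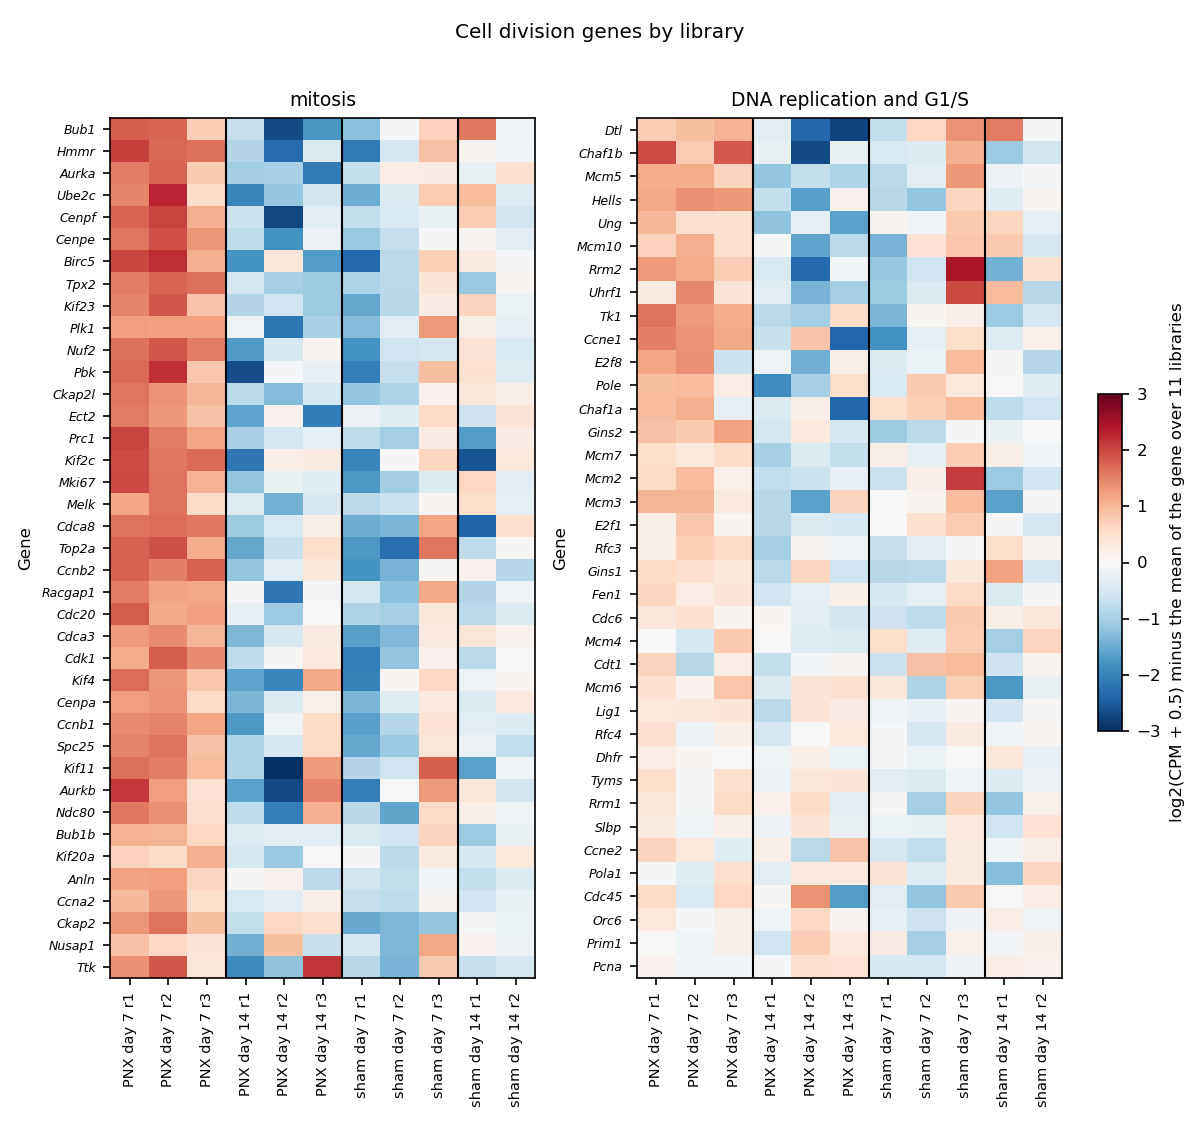
Colour gives log2(CPM + 0.5) of each gene less its mean over the 11 libraries, for 39 mitosis genes (left) and 37 DNA replication genes (right), with a column for each library and rows ordered by log2 fold change. The 3 columns of PNX at day 7 are red for nearly all mitosis genes, and those of PNX at day 14 are mostly blue.

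Summed over the list, mitosis genes took 878, 883 and 638 CPM in the libraries of day 7 and 152, 205 and 300 CPM in those of day 14. Replicate 1 of day 14, the only library of that day with Y-linked counts, had the lowest sum. With presence of Y-linked counts as a covariate the list's median was -2.73, with a GC offset -2.22, and with total counts -2.31. Leaving out 1 of the 6 PNX libraries at a time gave medians from -2.42 to -1.79. With the Y-linked covariate, Mki67 and Tacc3 were past the threshold as lower (adjusted p = 0.0233 for each).

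Cell cycle inhibitors and p53 targets were more often higher than lower. Of 23 tested, 16 were higher and 7 lower, with a median of 0.32 and a lowest value of -2.38. Between the sham days 12 were higher and 11 lower (median 0.03). Cdkn2b, an inhibitor of the kinases that start the cycle, stood at 4.25, 8.86 and 6.30 CPM at day 7 and at 11.01, 26.1 and 19.3 CPM at day 14. Each library of day 14 was above each of day 7 (1.55 ± 0.42, adjusted p = 0.425). Cdkn2b was higher between the sham days as well (1.06 ± 0.46). Btg1, an antiproliferative gene, stood at 306 to 410 CPM and then at 563 to 749 CPM (0.91 ± 0.32).

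The genes of smallest p that were higher at day 14 belong to no single process. Il12b, which encodes the p40 subunit of interleukins 12 and 23, stood at 3.91, 1.66 and 1.54 CPM at day 7 and at 18.1, 17.3 and 19.1 CPM at day 14. The libraries of day 14 were close to each other and well above those of day 7 (2.92 ± 0.57, adjusted p = 0.186, and 0.00727 on the PNX libraries alone). Map3k1, a kinase upstream of the JNK and ERK pathways, stood at 44.0, 37.7 and 54.6 CPM and then at 85.3, 211 and 311 CPM. The days did not overlap, but replicate 1 of day 14 was far below the other 2 of that day (2.15 ± 0.42, adjusted p = 0.186, and 0.782 with the Y-linked covariate).

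Angptl7, whose product is a secreted protein related to the angiopoietins, stood at 280, 217 and 297 CPM at day 7 and at 793, 1231 and 1894 CPM at day 14. All 3 libraries of day 14 were above all 3 of day 7 (2.30 ± 0.50, adjusted p = 0.231, and 0.00457 on the PNX libraries alone). With the Y-linked covariate Angptl7 had a log2 fold change of 2.06 (adjusted p = 0.782). It lies on chromosome 4 (148495183 to 148500460, minus strand). Of 10 genes of the angiopoietin and angiopoietin-like families tested, 4 were higher and 6 lower, with a median of -0.14. Angpt2, a ligand of the Tie2 receptor of vessels, was at 39.9 to 61.4 CPM and then at 109 to 142 CPM (1.27 ± 0.42), and Angptl4, which inhibits lipoprotein lipase, at 75.8 to 175 and then at 20.3 to 67.9 CPM (-1.31 ± 0.50).

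Col4a3, a chain of basement membrane collagen IV, stood at 45.4, 47.4 and 62.2 CPM at day 7 and at 172, 416 and 324 CPM at day 14. Every library of day 14 was higher than every library of day 7 (2.56 ± 0.52, adjusted p = 0.186, and 0.00134 on the PNX libraries alone). Its neighbour Col4a4, which is read from the opposite strand and encodes a chain of the same collagen trimer, was at 44.4, 47.1 and 53.5 CPM and then at 108, 145 and 139 CPM (1.43 ± 0.42, adjusted p = 0.513). Col4a3 lies on chromosome 1 (82586921 to 82722059) and Col4a4 beside it (82448423 to 82586849). Type I alveolar cells also express these chains, and the summed level of 12 type I markers was 833 to 1105 CPM at day 7 and 1311 to 2820 CPM at day 14. The part of such cells in the difference was not tested.

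Several of the other higher genes are known from leukocytes. Pla2g7, an enzyme that inactivates platelet-activating factor, stood at 11.6 to 24.8 CPM at day 7 and at 48.9 to 58.5 CPM at day 14 (1.72 ± 0.38, adjusted p = 0.239). Dpep2, a dipeptidase that processes leukotrienes, was at 1.80 to 3.91 and then at 10.1 to 23.4 CPM (2.41 ± 0.49, 0.186), and Slamf9, a surface receptor of the SLAM family, at 5.01 to 6.97 and then at 14.2 to 28.4 CPM (1.73 ± 0.39, 0.294). Summed macrophage markers, 18 genes, took 183 to 271 CPM at day 7 and 370 to 886 CPM at day 14. Much of that sum was Lyz2, which type II cells also express, at 59.4 to 116 and then 255 to 683 CPM. Ptprc, the gene of CD45, took 5.26 to 9.01 and 10.04 to 16.4 CPM. Of the 18 macrophage markers 8 were higher and 10 lower (median -0.16), and the median turned to 0.26 without replicate 1 of day 7, to 0.24 without replicate 3 of day 14 and to 0.25 with the Y-linked covariate. Their part in these genes was not tested.

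Luc7l3, a splicing factor gene, stood at 103 to 123 CPM at day 7 and at 205 to 415 CPM at day 14 (1.41 ± 0.33), and Micu3, a regulator of mitochondrial calcium uptake, at 28.2 to 33.5 and then at 61.6 to 90.4 CPM (1.23 ± 0.30). Among the other higher genes of smallest p were Nap1l5 (1.64 ± 0.38) and AI593442 (1.59 ± 0.37), each with days that did not overlap.

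**Figure D3:**
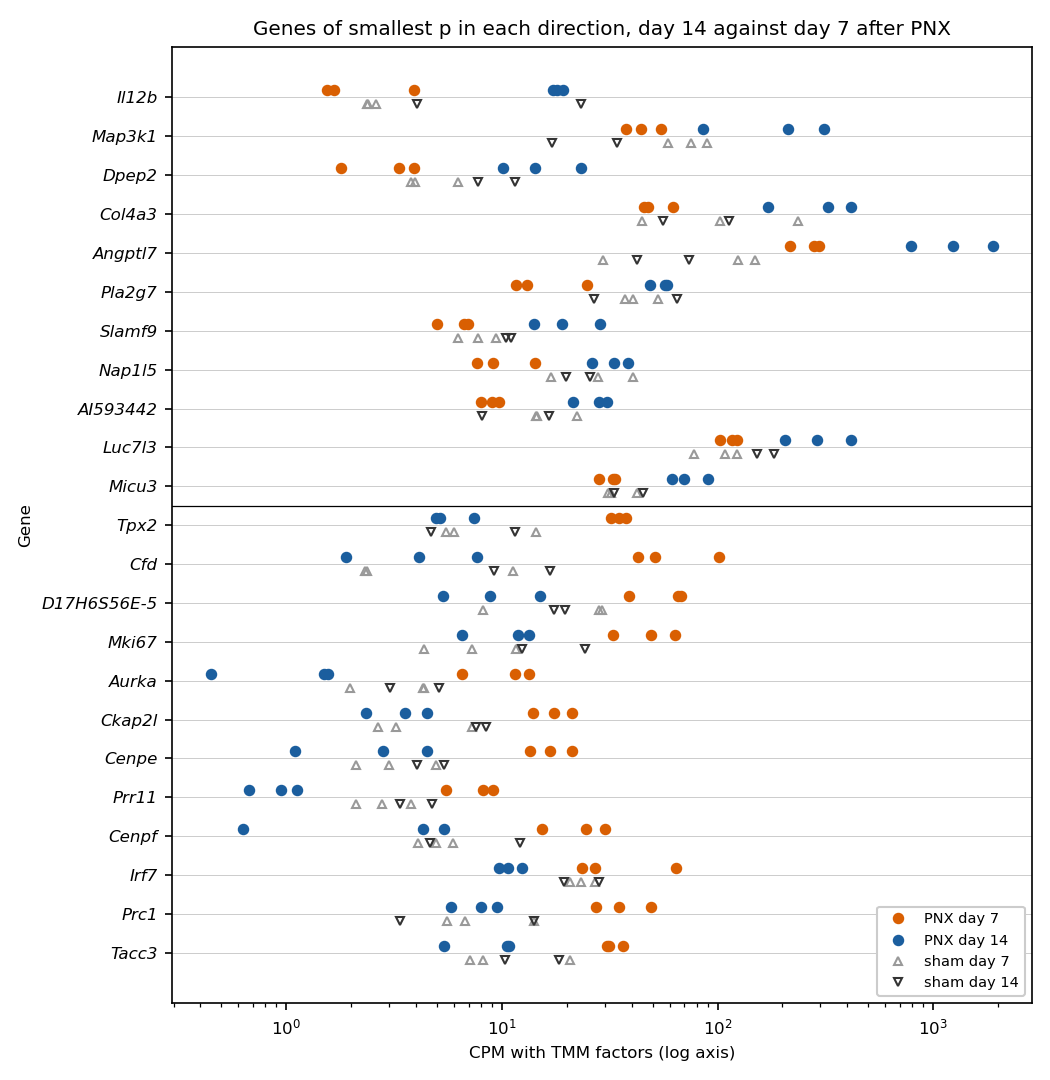
The x axis gives CPM on a log scale in each of the 11 libraries for 11 higher (top) and 12 lower (bottom) genes among those of smallest p whose PNX days do not overlap. Filled points are PNX libraries and open triangles sham libraries. Angptl7 of PNX at day 14 lies between 793 and 1894 CPM, and most sham points of the lower genes lie left of those of PNX at day 7.

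Several acute phase and complement genes were lower at day 14. Cfd, which encodes complement factor D, the protease of the alternative pathway, stood at 51.5, 42.9 and 101 CPM at day 7 and at 4.10, 1.88 and 7.64 CPM at day 14. All libraries of day 14 lay far below those of day 7 (-3.87 ± 0.66, adjusted p = 0.186, and 0.00622 on the PNX libraries alone). Cfd lies on chromosome 10 (79890853 to 79892655, plus strand) and is also an adipocyte gene. The 10 adipocyte markers, Cfd among them, summed to 230, 223 and 776 CPM at day 7 and to 142, 29.95 and 1025 CPM at day 14, with replicate 3 the highest on each day. Of the 8 adipocyte markers tested 7 were lower (median -0.72), and their part in Cfd was not tested. D17H6S56E-5, which had no match in the annotation, stood at 38.7 to 67.8 CPM and then at 5.34 to 15.1 CPM (-2.57 ± 0.47, adjusted p = 0.186).

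The serum amyloid genes, which encode acute phase apolipoproteins, were among them. Saa3 stood at 532, 234 and 1839 CPM at day 7 and at 50.9, 68.6 and 42.9 CPM at day 14. The days did not overlap, but the libraries of day 7 spread widely (-4.00 ± 1.29, adjusted p = 0.714). Saa1 was at 5.61, 4.71 and 22.6 CPM and then at 0.93, 0.94 and 0 CPM (-4.04 ± 1.00, adjusted p = 0.336). Lcn2, an iron-binding protein of the acute phase and of neutrophils, was at 50.1, 12.46 and 67.3 CPM and then at 6.34, 5.65 and 6.74 CPM (-2.80 ± 1.16, adjusted p = 0.724). Neutrophil markers, 11 with Lcn2 among them, were all lower (median -1.14), and summed to 119, 38.6 and 268 CPM at day 7 and to 54.7, 32.1 and 64.9 CPM at day 14. Their part in the acute phase genes was not tested.

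Of 31 cytokine, chemokine and acute phase genes tested, 20 were higher and 11 lower (median 0.13), so the list as a whole did not follow the serum amyloids. At an unadjusted p under 0.05, 7 were lower (3.13% of all genes were) and 3 higher (3.72%). Ccl5, a chemokine for T cells and monocytes, was at 0.83 to 3.74 CPM and then at 5.22 to 7.64 CPM (1.41 ± 0.57). Of 25 complement genes 18 were lower and 7 higher (median -0.59). Cfb, which encodes factor B, overlapped between days, with 1016, 435 and 2146 CPM and then 472, 211 and 299 CPM (-1.87 ± 0.61). Cd59a, which blocks the terminal complement pore, was higher, at 61.2 to 68.8 and then at 117 to 183 CPM (1.11 ± 0.32, adjusted p = 0.513). Its log2 fold change between the sham days was 1.11 ± 0.35.

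Interferon response genes leaned lower. Of 31 tested, 26 were lower and 5 higher (median -0.51), with 5 lower at an unadjusted p under 0.05 (3.13% of all genes were), 0 higher in edgeR, and 2 called lower on the PNX libraries alone (0.244%). Irf7, a transcription factor that amplifies the response, stood at 23.5, 27.1 and 63.9 CPM at day 7 and at 10.6, 9.73 and 12.4 CPM at day 14. The days did not overlap, and replicate 3 of day 7 was the highest (-1.81 ± 0.39, adjusted p = 0.214, and 0.0293 on the PNX libraries alone). Ifi27l2a, an interferon-induced gene, was at 147, 183 and 171 CPM and then at 55.6, 90.2 and 55.5 CPM (-1.31 ± 0.38, adjusted p = 0.513). Oas2, an antiviral enzyme, was at 4.43 to 10.8 and then at 1.26 to 2.99 CPM (-1.68 ± 0.71). Without replicate 3 of day 7 the list's median was -0.042.

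Activated fibroblast genes were lower in part. Of 22 tested, 16 were lower and 6 higher (median -0.25), with 3 lower at an unadjusted p under 0.05 (3.13% of all genes were). Timp1, an inhibitor of matrix metalloproteinases, stood at 430, 400 and 387 CPM at day 7 and at 197, 241 and 144 CPM at day 14. The days were well apart (-1.06 ± 0.31, adjusted p = 0.513). Adam12, a metalloprotease of activated fibroblasts, was at 17.5, 25.5 and 36.4 CPM and then at 5.60, 11.8 and 14.4 CPM (-1.32 ± 0.49), and Tnc, which encodes tenascin C, was at 134, 325 and 73.5 CPM and then at 62.5, 128 and 52.6 CPM, with overlap (-1.12 ± 0.49).

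Cthrc1, a secreted marker of matrix-producing fibroblasts, stood at 106, 193 and 152 CPM at day 7 and at 91.8, 159 and 100 CPM at day 14. These values overlapped, and the log2 fold change of -0.36 ± 0.36 did not pass (adjusted p = 0.804). Spp1, which encodes osteopontin, was at 216, 881 and 130 CPM and then at 313, 255 and 167 CPM. Its log2 fold change was -0.74 ± 0.59 and 0.50 without replicate 2 of day 7, so its direction rests on that library. Without the same replicate the list's median was -0.017.

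Of 29 collagen genes 12 were higher and 17 lower (median -0.16, but 0.11 without replicate 2 of day 7 and 0.052 without replicate 3 of day 14), and the 2 called as higher on the PNX libraries alone (0.37% of all genes were) were Col4a3 and Col4a4. Col1a1 stood at 2301, 2583 and 1875 CPM at day 7 and at 2024, 1833 and 1347 CPM at day 14, with overlap (-0.38 ± 0.52). Col3a1 stood at 4747, 4788 and 5257 CPM and then at 4604, 4608 and 3684 CPM. Each library of day 14 was below each of day 7, by a small margin for 2 of them, and the log2 fold change of -0.20 ± 0.39 was within its error (adjusted p = 0.902). Of 28 elastic fibre and crosslinking genes 12 were higher and 16 lower (median -0.062). Efemp2, which encodes the elastic fibre protein fibulin 4, was at 123 to 142 and then at 48.8 to 93.1 CPM (-0.95 ± 0.34).

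Of 30 proteoglycan and glycoprotein genes of the matrix 25 were higher and 5 lower (median 0.18, and -0.11 with total counts), with none past the adjusted threshold and 3 higher at an unadjusted p under 0.05 (3.72% of all genes were). Ogn, which encodes osteoglycin, stood at 478, 382 and 822 CPM and then at 1015, 1448 and 965 CPM (1.03 ± 0.43, adjusted p = 0.724). Aspn, which encodes asporin, a binder of collagen and TGF-beta, was at 371, 381 and 752 CPM and then at 1041, 1365 and 922 CPM (1.14 ± 0.52, adjusted p = 0.724). In both, replicate 3 of day 7 was the highest of its day and the days did not overlap.

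Smooth muscle and contractile genes were higher for 15 of 18 (median 0.43, and 0.16 with total counts), and 8 had days that did not overlap (9.02% of all genes). At an unadjusted p under 0.05, 2 were higher (3.72% of all genes were) and 0 lower in edgeR. Myh11, the smooth muscle myosin heavy chain, stood at 288, 232 and 381 CPM at day 7 and at 554, 542 and 470 CPM at day 14 (0.80 ± 0.39, adjusted p = 0.747). Actg2, a smooth muscle actin, was at 99.2 to 107 and then at 147 to 266 CPM (0.89 ± 0.34), and Acta2, the alpha smooth muscle actin, at 1088, 1385 and 1153 and then at 1818, 1890 and 1420 CPM (0.50 ± 0.35). Each of the 3 was higher in all libraries of day 14 than in any of day 7. The summed level of the list was 4598 to 5220 CPM at day 7 and 6320 to 8348 CPM at day 14.

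Of 15 alveolar fibroblast genes 10 were higher and 5 lower, with 0 at an unadjusted p under 0.05 in edgeR and a median of 0.17 (-0.17 with total counts). Adventitial fibroblast genes were higher for 12 of 17 (median 0.42). Ackr3, a scavenger receptor for the chemokine Cxcl12, was at 24.9 to 36.2 CPM and then at 50.5 to 98.0 CPM (1.27 ± 0.43, adjusted p = 0.624). Pericyte genes were split 6 to 6.

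Mesothelial genes lay in both directions. Wt1, the Wilms tumour transcription factor, stood at 47.6, 53.2 and 114 CPM at day 7 and at 143, 272 and 359 CPM at day 14. All values of day 14 were above those of day 7 (1.85 ± 0.50, adjusted p = 0.447). With the Y-linked covariate the log2 fold change of Wt1 was 1.11 (adjusted p = 0.936). Msln, which encodes mesothelin, and Krt8, a keratin, were lower, at 340 to 682 and then 160 to 393 CPM (-1.01 ± 0.48) and at 91.1 to 167 and then 49.7 to 87.1 CPM (-0.89 ± 0.36). Of 14 tested, 8 were higher and 6 lower (median 0.041), and the summed level overlapped between days.

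Growth signals to the epithelium were mostly higher on the TMM scale. Of 27 alveolar niche ligands 19 were higher and 8 lower (median 0.25, and -0.058 with total counts). Between the sham days, too, 19 were higher and 8 lower (median 0.24). Fgf7 and Fgf10, ligands of the epithelial receptor Fgfr2b, had log2 fold changes of 0.48 ± 0.37 and 0.60 ± 0.41, neither past the threshold. Ntf3, a neurotrophin, stood at 13.1 to 21.7 and then at 25.9 to 42.5 CPM (0.97 ± 0.38), and Tslp, a cytokine of barrier tissues, at 15.3 to 29.4 and then at 33.2 to 55.5 CPM (0.97 ± 0.36). Nrg1 had the lowest log2 fold change of the list (-2.83 ± 1.22). Its level was low, at 0.90 to 2.55 and then at 0.19 to 0.31 CPM, without overlap.

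Among TGF-beta and BMP genes, 25 of 38 were higher and 10 had days that did not overlap, all of them higher (9.02% of all genes were). The list's median of 0.082 turned to -0.22 with total counts. Bmp3, an inhibitory BMP ligand, stood at 43.9, 34.3 and 60.0 CPM at day 7 and at 96.1, 163 and 137 CPM at day 14 (1.52 ± 0.52, adjusted p = 0.675, and 0.021 on the PNX libraries alone). Skil, a repressor of SMAD signalling that TGF-beta itself induces, was at 320, 280 and 174 CPM and then at 603, 563 and 635 CPM (1.22 ± 0.44). Znrf3, a ubiquitin ligase that removes Wnt receptors, was at 44.9 to 98.4 and then at 116 to 211 CPM (1.27 ± 0.37, adjusted p = 0.513), while Wnt genes were split 15 higher to 18 lower.

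Hormone and clock genes can move with the hour or stress of collection, and the labels give no hour. Of 20 glucocorticoid-induced genes 13 were lower and 7 higher (median -0.42). Tsc22d3, induced by glucocorticoids, was at 142 to 209 CPM and then at 76.6 to 110 CPM (-0.91 ± 0.38), while Hsd11b1, the enzyme that reactivates glucocorticoids, was at 569 to 985 and then at 1398 to 2822 CPM (1.30 ± 0.40, adjusted p = 0.560). Hsd11b1 had a log2 fold change of 1.22 ± 0.43 between the sham days. The receptor gene Nr3c1 was at 131 to 154 and then at 198 to 301 CPM (0.86 ± 0.33).

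Arntl, the core clock activator, stood at 30.6, 29.4 and 21.8 CPM at day 7 and at 73.9, 58.7 and 66.1 CPM at day 14 (1.28 ± 0.40, adjusted p = 0.567, and 0.0369 on the PNX libraries alone). Nr1d1, its repressor REV-ERB alpha, was at 95.01, 55.7 and 146 CPM and then at 13.1, 37.5 and 33.3 CPM (-1.82 ± 0.62). The pair lay in opposite directions with no overlap in either, and the 19 clock genes had a median of -0.029. Hspa1a, a heat shock gene that rises on handling of cells, was at 711, 1098 and 304 CPM and then at 289, 147 and 157 CPM (-1.83 ± 0.68). Between the sham days its log2 fold change was -2.21 ± 0.80. Canx, a chaperone of the endoplasmic reticulum, was at 973, 701 and 1115 CPM and then at 1430, 3074 and 3862 CPM (1.58 ± 0.46, adjusted p = 0.513, and 0.0475 on the PNX libraries alone).

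Markers of cells outside the gate differed between days, most of all those of type II alveolar cells. Of 14 type II markers 12 were higher at day 14 (median 2.18, and 1.92 with total counts), 10 with days that did not overlap (9.02% of all genes), and 4 were called higher on the PNX libraries alone (0.37%). Their summed level was 1805, 1608 and 435 CPM at day 7 and 15750, 17220 and 7643 CPM at day 14. Sftpc alone stood at 1528, 1353 and 343 CPM and then at 13662, 15517 and 6819 CPM (3.48 ± 1.79, adjusted p = 0.757). Sftpa1, another surfactant protein gene, was at 42.0 to 159 and then at 618 to 1483 CPM (3.38 ± 1.63), and Lyz1, a lysozyme of these cells, at 3.21 to 6.92 and then at 56.3 to 94.2 CPM (3.67 ± 1.41, adjusted p = 0.724, and 0.000150 on the PNX libraries alone). Every one of these 3 was higher in each library of day 14, but the standard errors were large. The lowest of the 14 markers had a log2 fold change of -0.25.

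Type I alveolar markers were higher for 10 of 12 (median 0.83), and also for 10 of 12 between the sham days (median 0.95). Cldn18, a tight junction gene, stood at 49.3, 51.5 and 28.3 CPM and then at 115, 457 and 202 CPM (2.59 ± 1.04, adjusted p = 0.724), and Akap5, a kinase anchor, at 19.9 to 23.5 and then at 37.7, 164 and 104 CPM (2.25 ± 0.76). Platelet markers were lower for all 7 tested (median -1.56), and summed to 28.7 to 125 CPM at day 7 and 18.8 to 58.5 CPM at day 14. Lyz2, a lysozyme of macrophages that type II cells also express, was at 59.4 to 116 and then at 255 to 683 CPM (2.51 ± 1.13). Endothelial markers were lower for 12 of 18 (median -0.17), but the median was 0.56 without replicate 1 of day 7, so its direction rests on that library. Erythroid markers were higher for 8 of 9 (median 0.81), with a median of -1.92 with the Y-linked covariate and of -0.012 without replicate 2 of day 14, the library richest in haemoglobin. Ccl21a, of the lymphatic endothelial list, had no count in any of the 6 libraries.

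**Figure D4:**
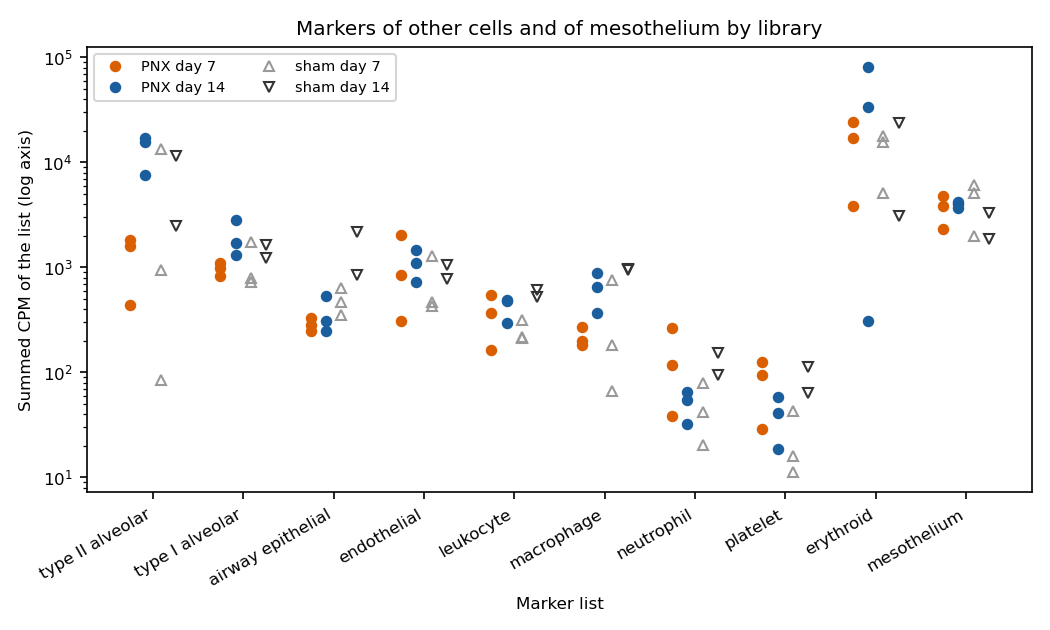
The y axis gives the summed CPM of each marker list on a log scale, with a point for each of the 11 libraries. For type II alveolar markers the 3 libraries of PNX at day 14 (7643 to 17220 CPM) lie above the 3 of PNX at day 7 (435 to 1805 CPM), while sham libraries span both ranges.

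The same step in time was then compared with that after sham surgery. No gene passed the threshold for a change between days that differed between PNX and sham (edgeR, interaction, 0.0% called in either direction). At an unadjusted p under 0.05, 666 genes (4.16%) were above 0, meaning a more positive change after PNX, and 736 (4.6%) were below. DESeq2 called 37 above and 40 below 0, and limma voom 0 and 0. These counts rested on the sham libraries of day 14: without replicate 2 of that group, which leaves 1 library assumed to vary like the others, 250 and 120 passed. Between the 2 sham days themselves edgeR called 3 genes higher (0.0187%), Ccl6, Cd53 and Cybb, all known from leukocytes, and 0 lower, with 1012 higher (6.32%) and 1271 lower (7.94%) at an unadjusted p under 0.05.

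Mitosis genes were lower between days after PNX and not after sham. Their median log2 fold change was 0.090 between the sham days, with 25 higher and 14 lower. The interaction was below 0 at an unadjusted p under 0.05 for 24 of the 39 (4.6% of all genes were), and above it for 0, with none past the adjusted threshold in edgeR. Mki67 stood at 4.36, 7.30 and 11.6 CPM in sham at day 7 and at 24.2 and 12.4 CPM in sham at day 14. Its change after PNX less that after sham was -3.41 ± 0.63 (adjusted p = 0.160). Cks2, a small protein that binds cyclin-dependent kinases, gave -3.63 ± 0.72 (adjusted p = 0.168).

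Ifi27l2a had the smallest interaction p of the named genes. It stood at 97.1, 46.2 and 42.5 CPM in sham at day 7 and at 399 and 224 CPM in sham at day 14, the opposite of its course after PNX (-3.64 ± 0.56, adjusted p = 0.0724). Cfd was at 11.2, 2.36 and 2.32 CPM and then at 16.8 and 9.15 CPM in sham, an interaction of -5.11 ± 0.93 (adjusted p = 0.168). The interferon list had a median of 0.52 between the sham days and -0.51 between the PNX days. In sham, leukocyte markers had a median of 1.43 between days, against 0.19 after PNX, and macrophage markers 1.80 against -0.16. Both of these PNX medians changed sign in some fits without 1 library (to -0.093 for leukocyte markers without PNX day 7 replicate 2). The part of those cells in the interferon genes was not tested.

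Above 0, Map3k1 was at 58.8, 75.0 and 89.0 CPM in sham at day 7 and at 17.1 and 34.2 CPM in sham at day 14 (interaction 3.67 ± 0.65, adjusted p = 0.160). Wt1 was at 52.0, 26.6 and 120 CPM and then at 16.1 and 19.5 CPM (3.73 ± 0.78, adjusted p = 0.203). Both were lower in sham and higher after PNX between the days. Gas7, an actin-binding protein gene, was at 613 to 1118 CPM in sham at day 7 and at 116 and 112 CPM in sham at day 14, while its PNX values overlapped, at 430 to 542 and 374 to 935 CPM (3.22 ± 0.59, adjusted p = 0.160). Dpysl2, a cytoskeletal regulator, was at 2394 to 4170 CPM and then at 743 and 814 CPM in sham, with PNX values of 1354 to 1742 and 1725 to 3233 CPM (2.62 ± 0.57, adjusted p = 0.203).

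Genes of protein synthesis and respiration showed their larger differences in sham. Of 34 cytosolic ribosomal protein genes 29 were lower and 5 higher between the PNX days (median -0.26), with 0 at an unadjusted p under 0.05 in edgeR, while all 34 were higher between the sham days (median 1.32). Their summed level was 8082, 5351 and 5601 CPM in sham at day 7 and 21330 and 9229 CPM in sham at day 14. The higher of the latter came from replicate 1, which had the fewest counts of all 11 libraries and the highest receptor background (1606 CPM), and the part of either in the difference was not tested. In the interaction 29 of the 34 were below 0 at an unadjusted p under 0.05 (4.6% of all genes were). Rps28, a protein of the small subunit, stood at 33.1, 77.8 and 30.6 CPM after PNX at day 7 and at 18.5, 26.1 and 13.7 CPM at day 14. Oxidative phosphorylation genes, 29 tested, had a median of 0.090 between the PNX days and 0.97 between the sham days.

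The matrix lists had lower medians between the sham days than between the PNX days. They were -0.75 against -0.16 for collagens, -0.52 against 0.18 for proteoglycans and -0.91 against 0.42 for adventitial fibroblast genes. The summed level in sham at day 14 was 3916 CPM in replicate 1 and 8460 CPM in replicate 2 for collagens. It was 14690 and 31890 CPM for proteoglycans, and 9629 and 17250 CPM for adventitial fibroblast genes. Replicate 2 lay within the range of sham at day 7 in each list (7599 to 18540, 17450 to 37540 and 10500 to 36310 CPM). The part of replicate 1 in these medians was not tested. At an unadjusted p under 0.05, 9 of the 29 collagens lay above 0 in the interaction (4.16% of all genes did) and 0 below in edgeR. Il12b was higher between days in both, at 2.36 to 2.61 CPM in sham at day 7 and at 4.03 and 23.2 CPM in sham at day 14, with an interaction of 0.42 ± 0.82. Type II alveolar markers had a median of 0.60 in sham. Their summed level was not separated between the sham days.

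**Figure D5:**
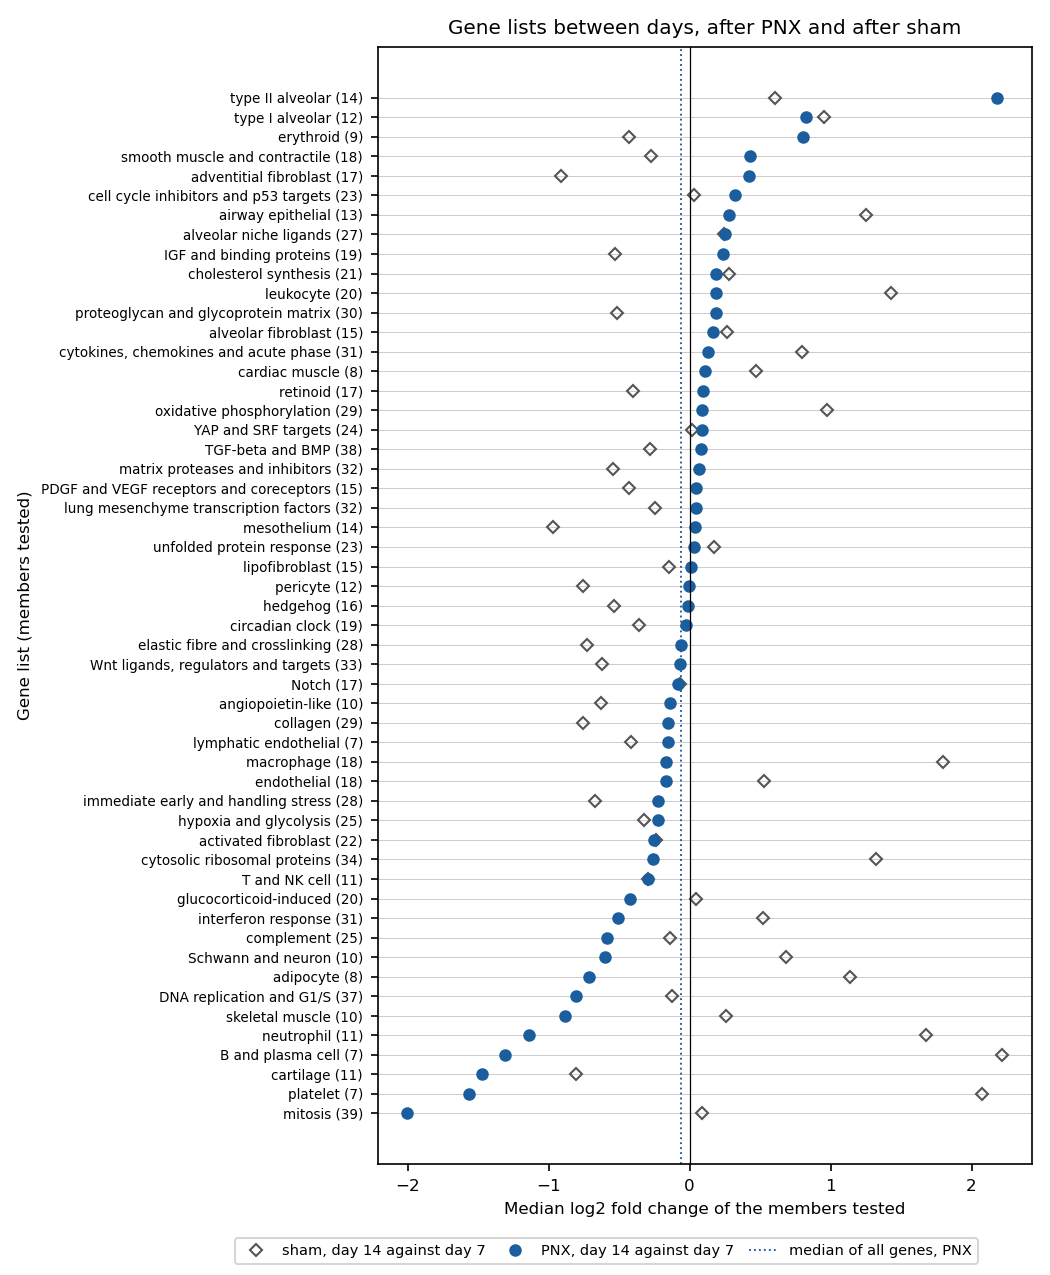
The x axis gives the median log2 fold change of the tested members of each gene list between day 14 and day 7, filled for PNX and open for sham, with lists ordered by the PNX value. Mitosis stands lowest after PNX at -2.00 with sham at 0.090, and type II alveolar markers stand highest at 2.18 with sham at 0.60.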

How the data were processed

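RNA was sequenced from 11 libraries of sorted mouse lung mesenchymal cells, made with a low-input kit per the labels. The authors deposited whole read counts per gene symbol. Per the submitters' processing notes the build was mm10 and bcl2fastq 2.20.0.422 was used. The aligner, counter, annotation and strand setting are not given in the sources used here, so genes that overlap may share reads, as may genes with near-identical copies (ribosomal proteins, Saa1, Saa3, Lyz1, Lyz2, Hspa1a), whose values are less certain.

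Counts went into edgeR 4.0.16 (R 4.3.3). filterByExpr removed 8400 of 24411 genes. TMM factors and robust quasi-likelihood F tests on 4 groups (7 residual degrees of freedom) were followed by Benjamini-Hochberg adjustment, with a threshold of 0.05. Adjusted p is from edgeR unless another tool is named. A standard error is the absolute log2 fold change over the square root of F, with a median of 0.442 between the PNX days. Scripts were checked on simulated counts in which 200 genes were changed between the PNX days. There edgeR called 6% of the changes of 2-fold and 75% of those of 4-fold, with 4 false calls of 120. DESeq2 made 26 false calls of 154, and limma voom 4 of 105.

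Named genes were, in each direction, the 12 of smallest p with days that do not overlap and a mean log2 CPM from 1 up, up to 4 of the interaction and up to 3 per list. Predicted, Y-linked and Xist genes were left out, and 1 of the 12 higher genes is not reported here. Bub1, Ccnb2, Cdc20, Ube2c, Dtl, Cthrc1, Spp1, Col1a1, Col3a1, Acta2, Fgf7, Fgf10, Ccl5, Oas2, Tsc22d3, Sftpc, Sftpa1 and the gate and sham genes were chosen after their values were seen. The members and all 53 lists were chosen with earlier results of these data known. Other settings were DESeq2 1.42.0, limma 3.58.1 voom, other scalings and filters, covariates, and each library left out. Locations are from GENCODE.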

Additional observations from a re-analysis of the deposited data

How the results depend on the processing

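Of 93 gene values recomputed under 25 other settings, 1 turned: Spp1, whose log2 fold change with 1 library left out ran from -1.14 to 0.50, the latter without PNX day 7 replicate 2. Counts between the PNX days, higher then lower, were 0 and 0 in the main test, 28 and 31 with DESeq2, 82 and 29 with limma voom, 3 and 5 without a filter on low counts, 0 and 3 with the Y-linked covariate, 50 and 33 on the 6 PNX libraries alone, and 83 and 50 on those with the replicate block. They were 0 and 0 with a test against a fold of 1.5, RLE factors, total counts, a filter of 1 CPM in 5 libraries, the receptor background covariate, and the GC offset with or without the block. With the replicate block they were 0 and 1 (Cfd, adjusted p = 0.0282). Leaving out 1 library at a time gave 0 to 0 higher and 0 to 2 lower, the 2 without sham day 7 replicate 1. The cause of these differences was not tested.

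For the interaction, counts above then below 0 were 37 and 40 with DESeq2, 2 and 6 without the filter, 0 and 1 with total counts, 0 and 1 with the Y-linked covariate, 0 and 1 with the replicate block, and 0 and 0 with limma voom and the remaining settings of all libraries. Leaving out 1 library gave 0 to 250 above and 0 to 120 below, the highest without sham day 14 replicate 2. They were 6 and 7 when sham day 7 replicate 2 was left out, and 2 and 3 when sham day 14 replicate 1 was.

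Same-numbered PNX libraries of the 2 days did not deviate together (correlations -0.161, -0.038 and -0.086), nor did those of sham (-0.226 and -0.402), and nothing in the labels pairs them. Medians of several lists near 0 change sign with 1 library left out or with total counts, where the median of all genes is -0.349. Genes of a few CPM rest on few counts in the shallowest libraries, of 2963341 counts in PNX and 2539628 in sham, and such differences may not be detectable at this depth.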
